A study of Arabidopsis thaliana with 27 samples.

Results

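The genes described here are 10 nuclear genes of chlorophyll biosynthesis in Arabidopsis thaliana, taken by their gene identifiers from the 34262 genes of the count table: HEMA1 (AT1G58290), CHLH (AT5G13630), GUN4 (AT3G59400), CHLM (AT4G25080), CHL27 (AT3G56940), PORA (AT5G54190), PORB (AT4G27440), PORC (AT1G03630), CAO (AT1G44446) and CHLG (AT3G51820). All 10 passed the filter on low counts and were tested. Their RNA was measured by RNA-seq in whole 7-day-old seedlings of pif457, hfr1-101 and the wild type Col-0. pif457 is the triple mutant pif4-101 pif5-3 pif7-1, which lacks function of 3 bHLH transcription factors of the PIF family. hfr1-101 is a mutant of HFR1, an atypical bHLH protein that is induced in shade and holds PIFs back from DNA. The study grew seedlings on sucrose-free medium under long days in a high ratio of red to far-red light (HRFR), or added far-red light to lower that ratio (LRFR) and so mimic the presence of neighbours, for 1 h or for 25 h before all seedlings were collected at the same hour of the day. Each of the 9 groups had 3 libraries, each from its own pool of seedlings, giving 27 libraries.

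Chlorophyll is made in plastids from glutamate. HEMA1 encodes the main glutamyl-tRNA reductase, the regulated step that supplies 5-aminolevulinic acid (ALA), the precursor of all tetrapyrroles. Protoporphyrin IX is then directed either to haem or, by magnesium chelatase, to chlorophyll. CHLH encodes the porphyrin-binding subunit of the chelatase and GUN4 encodes a protein that stimulates it. CHLM encodes the methyltransferase that acts on magnesium protoporphyrin, and CHL27 a subunit of the cyclase that closes the fifth ring. PORA, PORB and PORC encode protochlorophyllide oxidoreductases, which in flowering plants work only in light. PORA is typical of dark-grown seedlings and its RNA disappears in light, whereas PORB and PORC serve green seedlings. CAO converts chlorophyll a to chlorophyll b, and CHLG encodes chlorophyll synthase, which adds the phytyl tail. PIFs bind G-boxes (CACGTG) and related E-boxes and, in dark-grown seedlings, hold back greening genes.

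The libraries had 24857067 to 34863803 reads in genes (median 28117160), of which the 10 genes took 0.784% to 1.09%. PIF5 was at 11.2 to 14.8 CPM (reads scaled to library size) in the 9 pif457 libraries, against 111 to 166 CPM in the 9 Col-0 libraries, and PIF7 at 2.48 to 3.85 CPM in pif457, against 26.5 to 53.1 CPM in Col-0. PIF4 was less reduced, at 46.1 to 62.0 CPM in pif457, against 65.6 to 105 CPM in Col-0. HFR1 was not lower in hfr1-101 than in Col-0, so its counts do not check that label. In HRFR it was at 19.5 to 20.3 CPM in hfr1-101, against 13.6 to 18.4 CPM in Col-0. After LRFR 1 h it was at 107 to 144 against 89.9 to 138 CPM, and after 25 h at 190 to 226 against 133 to 151 CPM. In Col-0, 2 libraries stood apart from their groups, LRFR 25 h replicate 1 and HRFR replicate 1. Their summed CPM of 8 root genes (all 8 detected in every library) was 5407 and 5496, against 2999 to 4881 in the other 25 libraries. Col-0 LRFR 25 h replicate 1 was the lowest of its group for 9 of 9 genes described here, PORA aside, by a median of −0.50 on the log2 scale. Col-0 HRFR replicate 1 was also lowest for 9 of 9 (median −0.16), and hfr1-101 HRFR replicate 1 for 8 of 9 (median −0.17). Col-0 LRFR 1 h replicate 3 was highest for 9 of 9 (median 0.39), as was Col-0 LRFR 25 h replicate 2 (0.33). Col-0 HRFR replicate 3 (0.14) and hfr1-101 LRFR 1 h replicate 3 (0.07) were highest for 9 of 9 too. Such a place was thus not particular to the 2 libraries that stood apart. In whole seedlings, fewer green cells and less RNA per green cell cannot be told apart.

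Per kilobase of exon, the members spanned a wide range of RNA levels. CHL27 was the most abundant, with a mean of 1983 CPM per kb over the 27 libraries, followed by CHLH with 879, HEMA1 with 373, GUN4 with 276, CHLM with 267, CAO with 196, PORC with 149, CHLG with 122, PORB with 38.6 and PORA with 0.174 CPM per kb. CHL27, CHLH and HEMA1 had library ranges that did not touch (1559 to 2340, 639 to 1075 and 254 to 456 CPM per kb). From HEMA1 to CHLG the ranges of neighbours overlapped between libraries, but within a library the order held: HEMA1 was above GUN4, CHLM above CAO, CAO above PORC and PORC above CHLG in 27 of 27 libraries. GUN4 and CHLM were the neighbours without a fixed order, with GUN4 the higher in 13 of 27 libraries. PORB stood clear below them at 16.0 to 62.5 CPM per kb, and PORA had 2 to 17 reads per library. Between the 9 groups, 8 of the 10 genes moved little: the highest group mean was 1.11 times the lowest for CHLG, 1.13 times for CHLH, GUN4 and CHL27, 1.26 times for HEMA1 and PORC, 1.28 times for CAO and 1.35 times for CHLM. It was 2.77 times for PORB. For PORA the ratio was 3.71, from a handful of reads.

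Upstream sequence is shown for 4 members: PORB, whose RNA changed most, its paralogue PORA, and CHL27 and CAO, whose windows hold a G-box. The windows are the 250 bases before each annotated start in TAIR10.1 (RefSeq), cut where they run into a neighbouring gene, and are written 5′ to 3′ on the strand of the gene. Capitals mark the motifs, which were searched on both strands. They are the G-box CACGTG and the E-box variant CACATG, both bound by PIFs. The others are the GLK motif CCAATC, the I-box GATAAG and the core of the evening element, AATATCT. A match on the opposite strand is printed as its reverse complement, so CACATG appears as CATGTG and the I-box as CTTATC.
PORB (plus strand, chr4:13725360-13725545): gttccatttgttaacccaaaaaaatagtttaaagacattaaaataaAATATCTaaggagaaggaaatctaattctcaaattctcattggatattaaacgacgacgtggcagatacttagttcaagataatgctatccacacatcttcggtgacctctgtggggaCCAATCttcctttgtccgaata
PORA (minus strand, chr5:21992815-21993064): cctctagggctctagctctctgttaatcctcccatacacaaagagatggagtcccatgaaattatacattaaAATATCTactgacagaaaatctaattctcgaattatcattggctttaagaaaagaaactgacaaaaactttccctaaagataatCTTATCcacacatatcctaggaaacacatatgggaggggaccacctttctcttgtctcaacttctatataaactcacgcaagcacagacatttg
CHL27 (plus strand, chr3:21076316-21076504): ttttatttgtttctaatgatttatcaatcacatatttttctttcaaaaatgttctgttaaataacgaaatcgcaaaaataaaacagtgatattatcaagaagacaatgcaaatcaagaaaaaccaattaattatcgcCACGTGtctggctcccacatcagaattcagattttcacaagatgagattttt
CAO (minus strand, chr1:16851272-16851521): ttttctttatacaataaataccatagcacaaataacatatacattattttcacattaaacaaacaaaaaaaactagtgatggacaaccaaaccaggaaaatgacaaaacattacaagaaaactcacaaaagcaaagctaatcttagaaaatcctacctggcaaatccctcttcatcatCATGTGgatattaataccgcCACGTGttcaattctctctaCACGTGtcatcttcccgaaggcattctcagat

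Windows of the same length were read before the annotated starts of 27443 nuclear protein-coding genes. Of these, 6.49% held the G-box, 11.1% CACATG, 10.2% CCAATC, 12.3% GATAAG and 10% AATATCT. CHL27 had the G-box once, 52 to 47 bases before its start, and CAO 2 times, at 52 to 47 and at 32 to 27, with CATGTG at 72 to 67. PORB had AATATCT at 140 to 134 and CCAATC at 22 to 17 and, in the part of the window that lies in a neighbouring gene, at 219 to 214. It had no G-box in these 250 bases. PORA had AATATCT at 178 to 172 and CTTATC at 94 to 89. GUN4 had AATATCT at 221 to 215 and CCAATC at 13 to 8, in a window that lies wholly in a neighbouring gene. CHL27 and CAO were the 2 members of 10 with the G-box. HEMA1, CHLH, CHLM, PORC and CHLG held none of the 5 motifs. These matches describe the letters in a short window and nothing more. Sequence further upstream was not searched.

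PORB was the member with the largest response to LRFR in Col-0. Its RNA was at 76.8, 101 and 103 CPM in the 3 HRFR libraries, at 62.8, 55.9 and 70.9 CPM after LRFR 1 h and at 26.2, 44.7 and 33.5 CPM after LRFR 25 h. The libraries of the 3 light conditions did not overlap. Here and below, overlap describes 3 libraries against 3 and is not a test. The share of all genes without overlap is not given. After 1 h PORB was 32.3% lower than in HRFR (log2 fold change −0.56, 95% interval −0.84 to −0.29, SE 0.13, edgeR adjusted p = 0.0113), and after 25 h it was 62.7% lower (log2 fold change −1.42, −1.71 to −1.14, SE 0.14, edgeR adjusted p = 1.08e-07). It fell further between the treatments: LRFR 25 h was 44.9% lower than LRFR 1 h (log2 fold change −0.86, −1.15 to −0.58, edgeR adjusted p = 8.89e-05). The decrease at 1 h passed the threshold without both outlying libraries (log2 fold change −0.69, adjusted p = 0.000116). It missed it without Col-0 HRFR replicate 2 (adjusted p = 0.0609) or 3 (0.0824), without Col-0 LRFR 1 h replicate 1 (0.0512) or 2 (0.0984), and when only Col-0 HRFR and LRFR 1 h were fitted (0.0681). At 25 h PORB passed in 14 of 14 alternatives, at −1.64 to −1.25.

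The hfr1-101 seedlings gave the same order of PORB levels. PORB was at 90.7, 98.2 and 100.5 CPM in HRFR, at 58.8, 54.7 and 65.2 CPM after 1 h and at 38.2, 43.2 and 41.3 CPM after 25 h, again without overlap between light conditions. It was 38.3% lower at 1 h than in HRFR (log2 fold change −0.70, −0.97 to −0.42, edgeR adjusted p = 0.00124) and 57.6% lower at 25 h (log2 fold change −1.24, −1.52 to −0.96, edgeR adjusted p = 4.23e-07).

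In pif457 seedlings PORB stayed within a narrow band. It was at 52.3, 59.0 and 62.2 CPM in HRFR, at 57.2, 67.7 and 67.6 CPM after 1 h and at 55.1, 62.6 and 59.8 CPM after 25 h, and these libraries overlapped. The log2 fold change against HRFR was 0.15 at 1 h (−0.13 to 0.43, edgeR adjusted p = 0.968) and 0.03 at 25 h (−0.24 to 0.31, edgeR adjusted p = 0.963). The intervals leave out decreases of the size seen in Col-0 at either time.

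**Figure D1:**
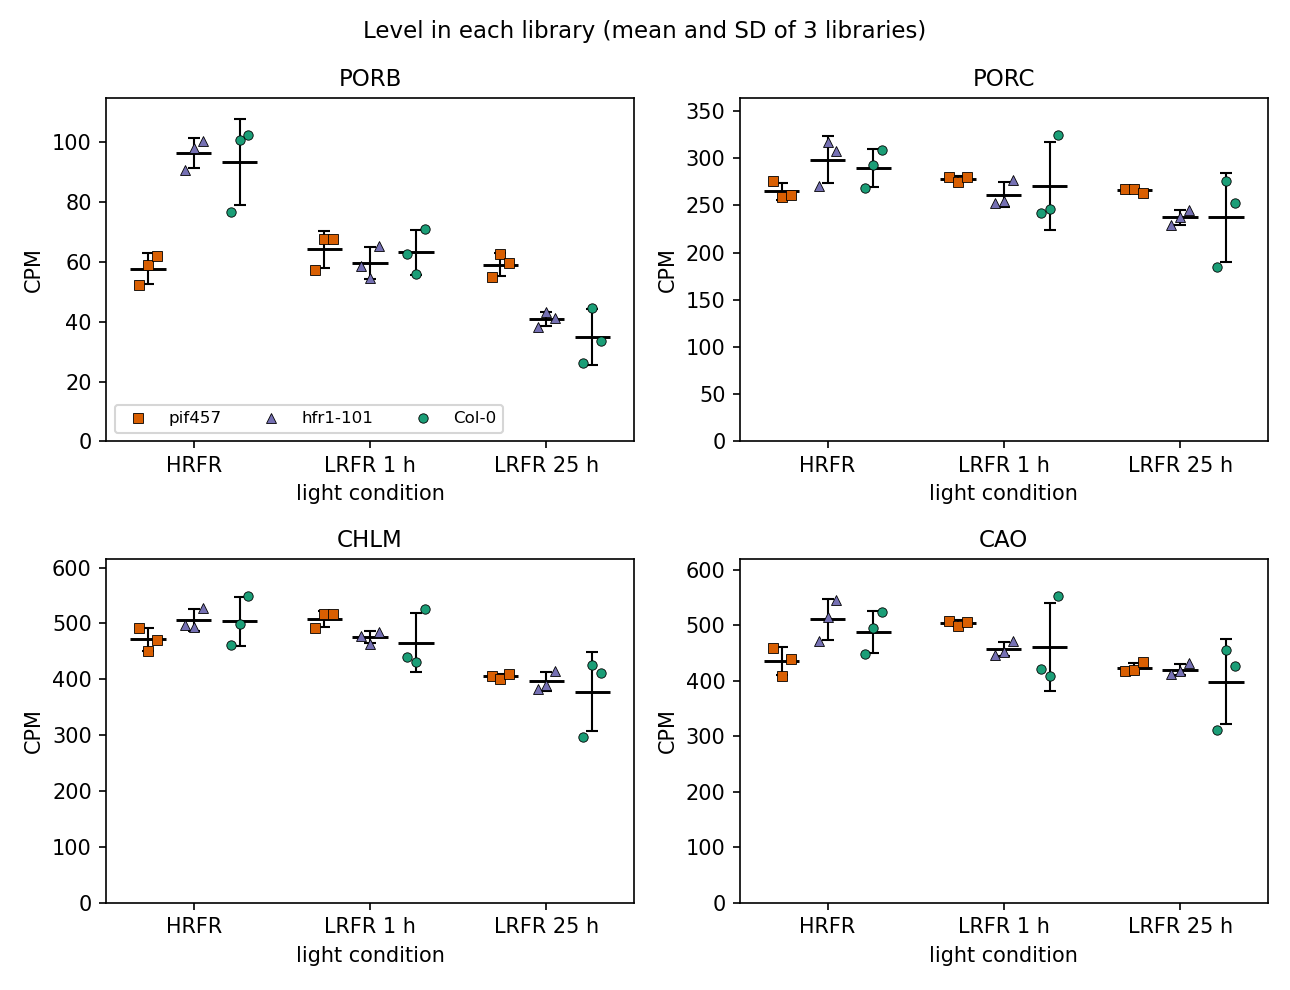
CPM of PORB, PORC, CHLM and CAO in each of the 27 libraries (points) with the group mean ± SD (n = 3), for pif457, hfr1-101 and Col-0 in each of the 3 lights. PORB averaged 34.8 CPM in Col-0 after LRFR 25 h and 93.4 CPM in HRFR, while in pif457 it averaged 59.1 and 57.8 CPM in the same conditions.

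The genotype comparisons of PORB changed sign with the light. In HRFR it was 38.1% lower in pif457 than in Col-0 (log2 fold change −0.69, −0.97 to −0.41, edgeR adjusted p = 0.00587), and after LRFR 25 h it was 70.2% higher (log2 fold change 0.77, 0.48 to 1.05, edgeR adjusted p = 0.0012). The libraries of the 2 genotypes did not overlap in either condition. After LRFR 1 h pif457 and Col-0 were at 64.2 ± 6.07 and 63.2 ± 7.55 CPM (SD, n = 3 each), a log2 fold change of 0.02 (−0.26 to 0.30, edgeR adjusted p = 0.972). The 9 pif457 libraries lay at 52.3 to 67.7 CPM in all lights, over much the same range as the Col-0 libraries after LRFR 1 h, at 55.9 to 70.9 CPM. The difference at 25 h passed without both outlying libraries (log2 fold change 0.59, adjusted p = 0.00214) and missed the threshold when only those 2 groups were fitted (adjusted p = 0.079).

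The response of PORB itself differed between pif457 and Col-0. The interaction term, the log2 fold change in pif457 minus that in Col-0, was 1.46 for LRFR 25 h (1.06 to 1.86, edgeR adjusted p = 0.000435) and passed in 20 of 20 alternatives, at 1.28 to 1.68. For LRFR 1 h it was 0.71 (0.32 to 1.11) with an edgeR adjusted p of 0.0499, just past the threshold, and it passed in 6 of 20 alternatives. Without both outlying libraries it was 0.84 (adjusted p = 0.000969). Each of 9 libraries, when left out alone, took it past 0.05, to adjusted p values of 0.0663 to 0.169: Col-0 HRFR replicates 2 and 3, pif457 HRFR replicates 1, 2 and 3, Col-0 LRFR 1 h replicates 1 and 2, and pif457 LRFR 1 h replicates 2 and 3. These terms share the Col-0 and HRFR libraries with the comparisons above. In hfr1-101 the interaction terms were −0.13 at 1 h (−0.52 to 0.26) and 0.19 at 25 h (−0.21 to 0.58), and neither passed.

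Set against its 2 sister genes, PORB lost share. Of the summed PORA, PORB and PORC level per kilobase in Col-0, PORB made up 25.8 ± 1.84% in HRFR, 20.3 ± 1.47% after LRFR 1 h and 13.7 ± 1.21% after LRFR 25 h (SD, n = 3 each). In hfr1-101 it made up 26.0 ± 0.799%, 19.8 ± 0.803% and 15.8 ± 0.594% in the same order of light conditions. In pif457 it made up 19.2 ± 1.83%, 20.0 ± 1.61% and 19.5 ± 1.04%. Within Col-0 and within hfr1-101 the libraries of the 3 light conditions did not overlap. On this measure the outlying Col-0 LRFR 25 h replicate 1 stood at 13.4%, within the range of its group. PORA held 0.0477% to 0.168% of the sum as group means.

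**Figure D2:**
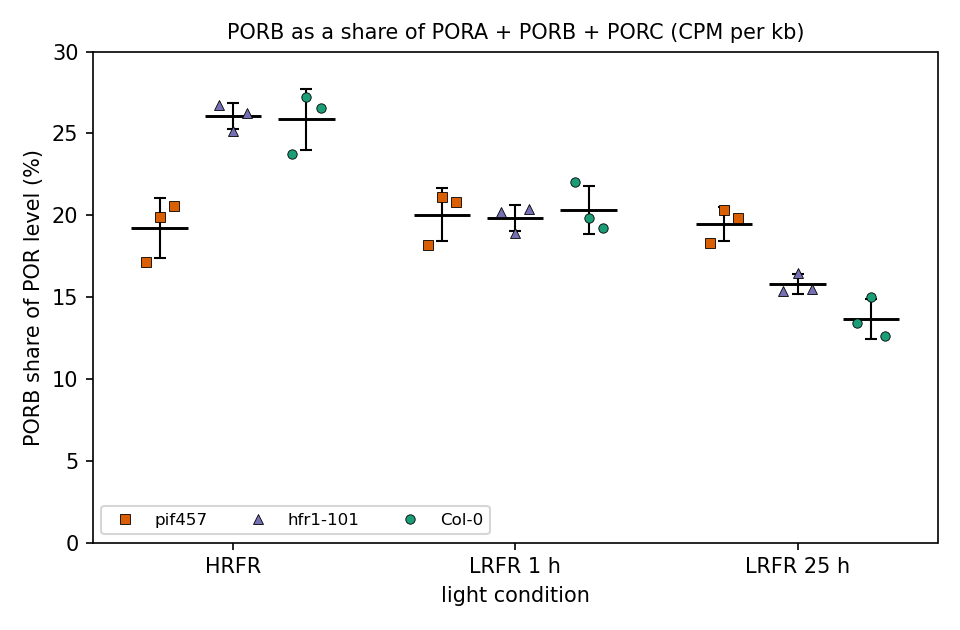
Share of PORB in the summed PORA, PORB and PORC level per kilobase (percent, y axis) in each library (points), with the group mean ± SD (n = 3), for pif457, hfr1-101 and Col-0 in each of the 3 lights. The mean share in Col-0 was 25.8% in HRFR, 20.3% at 1 h and 13.7% at 25 h, and the pif457 means lay between 19.2% and 20.0%.

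PORC, which carries most of the oxidoreductase RNA in these green seedlings, changed by less. In hfr1-101 it was at 229, 238 and 245 CPM after LRFR 25 h, against 271, 318 and 307 CPM in HRFR, without overlap. That is 20.5% lower (log2 fold change −0.33, −0.56 to −0.11, edgeR adjusted p = 0.0336), and the call was lost when any 1 of 5 libraries was left out, hfr1-101 HRFR replicate 2 (adjusted p = 0.128) or 3 (0.0982) or LRFR 25 h replicate 1 (0.0963), 2 (0.0807) or 3 (0.063). In Col-0 it was at 184, 275 and 252 CPM after 25 h, against 268, 293 and 308 CPM in HRFR, overlapping, with a log2 fold change of −0.29 (−0.51 to −0.06, edgeR adjusted p = 0.0933). In pif457 the 25 h libraries were at 267, 267 and 263 CPM, against 275, 258 and 261 CPM in HRFR, a log2 fold change of 0.00 (−0.22 to 0.23). The interaction of pif457 with 25 h was 0.29 for PORC and did not pass (edgeR adjusted p = 0.811).

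PORA was close to the limit of detection in all 9 groups, with group means of 0.147 to 0.544 CPM. Its widest differences were 1.35 on the log2 scale for pif457 over Col-0 at LRFR 1 h (0.15 to 2.55, edgeR adjusted p = 0.28) and −1.14 for LRFR 25 h over HRFR in hfr1-101 (−2.42 to 0.15, edgeR adjusted p = 0.222). At this depth changes of about that size in PORA were not detectable.

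CHLM was the other member that fell in Col-0. It was at 296, 425 and 411 CPM after LRFR 25 h, against 462, 499.8 and 549 CPM in HRFR, with no overlap. It was 25.0% lower (log2 fold change −0.42, −0.61 to −0.22, SE 0.10, edgeR adjusted p = 0.00444). The low value of 296 CPM is from the outlying replicate 1, and without both outlying libraries the log2 fold change was −0.32 (adjusted p = 0.00786). The call was lost when only the libraries of Col-0 HRFR and LRFR 25 h were fitted (adjusted p = 0.285). In hfr1-101 CHLM was at 383, 390.3 and 415 CPM after 25 h, against 496, 493 and 528 CPM in HRFR, which is 21.7% lower (log2 fold change −0.35, −0.55 to −0.15, edgeR adjusted p = 0.0104).

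In pif457 CHLM was at 406, 399.9 and 409.5 CPM after 25 h, against 493, 451 and 471 CPM in HRFR. These libraries did not overlap either, but the log2 fold change of −0.22 (−0.42 to −0.02) did not pass over all genes (edgeR adjusted p = 0.322). It passed without both outlying libraries (adjusted p = 0.0482) and when only those 2 groups were fitted (0.00512). The interaction of pif457 with LRFR 25 h was 0.20 for CHLM (−0.08 to 0.48, edgeR adjusted p = 0.919), so a difference between the genotypes in this response was not shown. After LRFR 1 h CHLM did not pass in any genotype, with log2 fold changes of −0.11 in Col-0, −0.09 in hfr1-101 and 0.11 in pif457. Between LRFR 25 h and LRFR 1 h in Col-0 it was 18.9% lower (edgeR adjusted p = 0.0365). That last call was lost without Col-0 LRFR 1 h replicate 3 (adjusted p = 0.165), without Col-0 LRFR 25 h replicate 1 (0.22) and without both outlying libraries (log2 fold change −0.15, adjusted p = 0.177).

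Within libraries, CHLM and PORB could be set against the mean log2 CPM of the 7 members other than CHLM, PORB and PORA. These 7 were taken as the steadier members in these same data, so the scale is a description and not a separate test. On this scale CHLM in Col-0 was at −0.82, −0.85 and −0.80 after LRFR 25 h, against −0.60, −0.61 and −0.54 in HRFR. In hfr1-101 it was at −0.84, −0.82 and −0.83, against −0.50, −0.68 and −0.64, and in pif457 at −0.74, −0.75 and −0.75, against −0.53, −0.56 and −0.54. The 25 h libraries lay below the HRFR libraries in all 3 genotypes, and the outlying Col-0 library lay between its partners. PORB on the same scale had means of −3.02, −3.51 and −4.28 in Col-0, in the order HRFR, 1 h and 25 h, of −3.00, −3.59 and −4.10 in hfr1-101, and of −3.57, −3.55 and −3.53 in pif457.

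CAO was at 311, 456 and 427 CPM after LRFR 25 h in Col-0, against 448, 494 and 523 CPM in HRFR, overlapping. In hfr1-101 it was at 411, 418 and 431 CPM, against 472, 515 and 545 CPM, without overlap. Neither difference passed (log2 fold change −0.30, edgeR adjusted p = 0.0811 in Col-0, and −0.28, edgeR adjusted p = 0.0695 in hfr1-101). In pif457 it was at 417, 419 and 433 CPM, against 458, 409 and 439 CPM (log2 fold change −0.04). Scaling by library totals brought both past the threshold, with adjusted p values of 0.0498 in Col-0 and 0.0433 in hfr1-101. In hfr1-101 CAO also passed when only those 2 groups were fitted (adjusted p = 0.00749) and without both outlying Col-0 libraries (0.0117).

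HEMA1, which feeds the whole pathway, was at 586, 906 and 847 CPM after LRFR 25 h in Col-0, against 898, 939 and 961 CPM in HRFR. The log2 fold change of −0.26 (−0.50 to −0.02) did not pass (edgeR adjusted p = 0.183). In hfr1-101 it was −0.17 (−0.42 to 0.07) and in pif457 −0.12 (−0.36 to 0.12). Single libraries moved HEMA1, PORC and CAO in Col-0 at 25 h either way. Without the outlying LRFR 25 h replicate 1 their log2 fold changes were −0.08, −0.13 and −0.14 (adjusted p = 0.646, 0.413 and 0.368). Without LRFR 25 h replicate 2, the highest of its group, all 3 passed (adjusted p = 0.0499, 0.0201 and 0.0224).

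The 2 genes at the chelatase, CHLH and GUN4, the cyclase gene CHL27 and the synthase gene CHLG did not pass in any of the 17 comparisons. CHLH was at 3040, 4699 and 4315 CPM after LRFR 25 h in Col-0, against 4096, 4305 and 4638 CPM in HRFR, a log2 fold change of −0.11 (−0.37 to 0.15). CHL27 was at 2327, 3268 and 3105 CPM, against 2805, 3016 and 3258 CPM, a log2 fold change of −0.06 (−0.28 to 0.16). GUN4 gave −0.04 (−0.25 to 0.17) and CHLG −0.16 (−0.34 to 0.03). Without the outlying LRFR 25 h replicate 1 the signs of 3 of them turned, to 0.06 for CHLH, 0.08 for CHL27 and 0.11 for GUN4, and CHLG was at −0.02. No direction can be given for CHLH, CHL27 and GUN4 in Col-0 at 25 h. CHLG stayed below 0 whichever of these Col-0 libraries was left out, at −0.25 to −0.02. It passed in none of those fits, so no decrease was shown for it. Of the 1296 exon bases of GUN4, 946 lie opposite the gene AT3G59410. The libraries were made with a stranded kit, but the strand setting of the counting is not given in the sources used here. Whether reads from the overlap were counted for GUN4, for AT3G59410 or for neither is therefore not known. The place of GUN4 in the order of levels per kilobase carries the same doubt. AT3G59410 itself was counted at 21.7 to 27.2 CPM, against 272 to 412 CPM for GUN4. No stretch of 50 exon bases of any member occurs elsewhere in the genome.

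**Figure D3:**
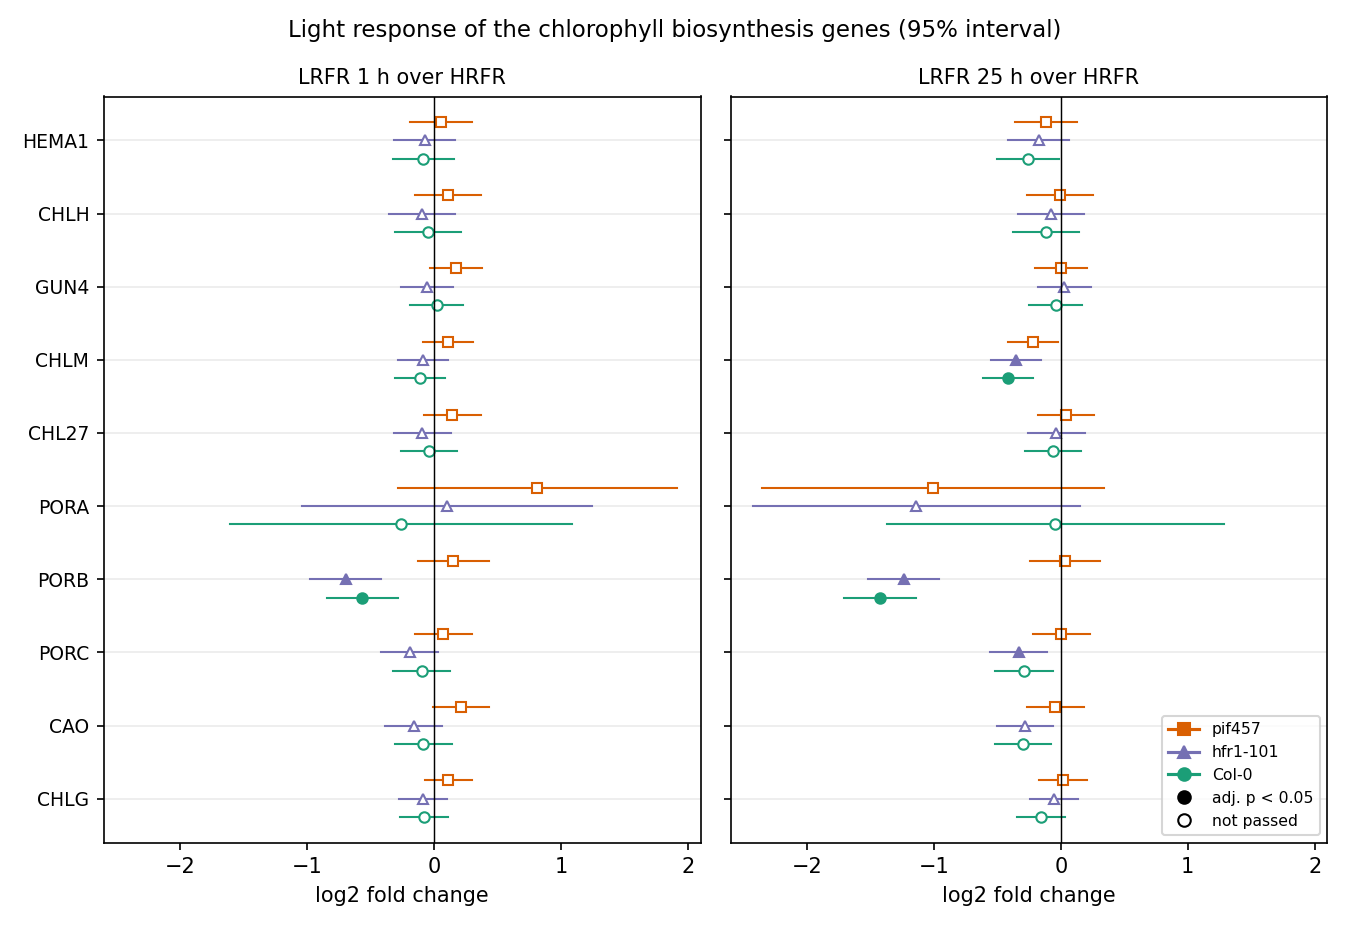
Log2 fold change over HRFR (x axis) with its 95% interval for the 10 members after LRFR 1 h and LRFR 25 h in pif457, hfr1-101 and Col-0, with filled points at an edgeR adjusted p under 0.05. PORB stands alone at −1.42 in Col-0 and −1.24 in hfr1-101 at 25 h and lies at 0.03 in pif457.

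Counted over the list, 2 of the 10 members fell after LRFR 25 h in Col-0 (PORB and CHLM), against 5.18% of all 20887 genes tested that fell. In hfr1-101, 3 of 10 fell (PORB, CHLM and PORC), against 8.8% of all genes. In pif457 0 of 10 changed at 25 h by edgeR, against 2.37% of all genes, with 1 at an unadjusted p below 0.05 (CHLM) and 0 by DESeq2. After LRFR 1 h PORB alone fell in Col-0 (background 2.11%) and in hfr1-101 (2.36%). In pif457 0 of 10 changed at 1 h by edgeR, against 0.215% of all genes, with 0 at an unadjusted p below 0.05 and 0 by DESeq2, and all 10 log2 fold changes were positive, at 0.05 to 0.81. None rose in any comparison with HRFR. With 10 members, 1 gene is 10% of the list. Between LRFR 25 h and LRFR 1 h in Col-0, PORB and CHLM were lower (background 5.75%). At the study's further threshold of an absolute log2 fold change above 0.6, PORB remained in Col-0 at 25 h (1.66% of all genes fell by that rule), in hfr1-101 at 1 h (0.876%) and 25 h (3.26%), and between 25 h and 1 h in Col-0 (2.36%). At 1 h in Col-0 it did not pass that rule, where 0.685% of genes did.

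Between genotypes, PORB was the member that differed between pif457 and Col-0, lower in HRFR, where 1.69% of all genes were lower, and higher after LRFR 25 h, where 2.83% were higher. After LRFR 1 h 0 of 10 differed by edgeR (background 4.21%), with 1 at an unadjusted p below 0.05 (PORA) and 0 by DESeq2. Between hfr1-101 and Col-0, 0 of 10 members differed by edgeR in any light, with 0 at an unadjusted p below 0.05 and 0 by DESeq2. The background was 0.0814% of all genes in HRFR, 0.177% after 1 h and 0.254% after 25 h. For PORB the log2 fold change of hfr1-101 over Col-0 was 0.05 in HRFR (−0.23 to 0.32), −0.08 after 1 h (−0.36 to 0.19) and 0.24 after 25 h (−0.05 to 0.52). In the interaction tests PORB was the 1 member that passed for pif457, at 1 h (0.876% of all genes had a positive term that passed) and at 25 h (0.115%). For hfr1-101 0 of 10 passed at either time, where 0% of all genes did, with 0 members at an unadjusted p below 0.05 and 0 by DESeq2.

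The rest of the tetrapyrrole pathway gives these members their surroundings. Its genes were listed with earlier results of these data known, so the counts describe the lists and are not tests of them. Of 14 tested genes that act between glutamate and protoporphyrin IX, other than HEMA1, 5 fell in Col-0 after LRFR 25 h, against 5.18% of all genes tested: HEMB1 (ALA dehydratase), HEMC (porphobilinogen deaminase), HEME1 and HEME2 (uroporphyrinogen decarboxylases) and HEMG1 (protoporphyrinogen oxidase). HEMG1 averaged 138 ± 22.2 CPM, against 200 ± 10.8 CPM in HRFR (SD, n = 3 each, log2 fold change −0.53, edgeR adjusted p = 0.00019). HEMC averaged 259 ± 56.0 CPM, against 366 ± 30.4 CPM (−0.50, edgeR adjusted p = 0.00165). The other 3 had log2 fold changes of −0.47 to −0.31.

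Of the 8 other genes of the magnesium branch, all tested, 3 fell, against the same 5.18% of all genes: CHLI1 and CHLD, the other subunits of magnesium chelatase, and YCF54, a factor of the cyclase. CHLD averaged 218 ± 45.9 CPM, against 295 ± 26.4 CPM in HRFR (log2 fold change −0.43, edgeR adjusted p = 0.00705), and YCF54 135 ± 24.6 CPM, against 187 ± 19.2 CPM (−0.47, edgeR adjusted p = 0.00314). CHLI1 was nearer the threshold (−0.32, edgeR adjusted p = 0.0467) and was lost without both outlying libraries (adjusted p = 0.116). FLU and GBP, regulators of ALA synthesis, did not pass.

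In the haem, bilin and sirohaem branches, of 8 tested genes, 1 rose and 2 fell, against 6.41% of all genes that rose and 5.18% that fell. FC2, the ferrochelatase that serves photosynthetic tissue, averaged 155 ± 30.8 CPM, against 119 ± 8.0 CPM (log2 fold change 0.38, edgeR adjusted p = 0.00819). HO4, a haem oxygenase of low level here, averaged 0.204 ± 0.119 CPM, against 0.912 ± 0.226 CPM (−2.14, edgeR adjusted p = 0.000248). UPM1, of the sirohaem branch, gave −0.23 (edgeR adjusted p = 0.0373), a call lost without both outlying libraries (adjusted p = 0.143).

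The same 11 genes of the lists passed with the same signs in hfr1-101 at 25 h, where 8.8% of all genes fell. HEMG1 averaged 134 ± 8.54 CPM, against 193 ± 16.2 CPM in HRFR (log2 fold change −0.53, edgeR adjusted p = 0.000139), and FC2 167 ± 1.44 CPM, against 123 ± 6.72 CPM (0.44, edgeR adjusted p = 0.00164). In pif457 only UPM1 passed in the fit of all libraries (−0.26, edgeR adjusted p = 0.0454). In the test of pif457 against Col-0 in the response to 25 h, 0 of the 32 listed genes tested passed by edgeR, with 11 at an unadjusted p below 0.05 and 0 by DESeq2. A difference between these genotypes was thus shown for PORB and not for them, and HEMG1 came to 0.36 (0.10 to 0.63, edgeR adjusted p = 0.39). After LRFR 1 h 0 of 32 passed in any genotype by edgeR or DESeq2, with 1 at an unadjusted p below 0.05 in Col-0 and 0 in the mutants. Between pif457 and Col-0, 1 of the 32 passed at 1 h, against 4.21% of all genes. It was UPM1, which was higher (log2 fold change 0.27, edgeR adjusted p = 0.0227). At 25 h 2 of 32 passed. HO4 was higher (1.34, edgeR adjusted p = 0.0442), where 2.83% of all genes were higher, and HEMA2 was lower (−0.22, edgeR adjusted p = 0.0434). The share of all genes that were lower in that comparison is not given here. Counts this small do not set the list apart from all genes.

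The calls on these listed genes differed in how far they rested on single libraries. When only Col-0 HRFR and LRFR 25 h were fitted, none of the 11 passed in Col-0 at 25 h (adjusted p = 0.0526 for HO4, 0.0909 for HEMG1 and 0.194 or more for the others). In Col-0 at 25 h, HEMB1 was lost without HRFR replicate 3 or LRFR 25 h replicate 1, CHLI1 without either of these or HRFR replicate 2, FC2 without LRFR 25 h replicate 2, and UPM1 without any of the 6 libraries but HRFR replicate 3. The other 7 passed whichever library was left out. In hfr1-101 HEMB1 and CHLI1 were each lost without HRFR replicate 2 or 3 or LRFR 25 h replicate 1 or 2, and the other 9 passed throughout. In pif457 UPM1 was lost without any of the 6 libraries but HRFR replicate 3. When only pif457 HRFR and LRFR 25 h were fitted, UPM1 passed, as did HEMG1, lower, and HEMF1, higher. That fit called 1739 genes in all. A fit of only the same groups of hfr1-101 added GSA2, HEMD and CHLI2, lower, and LIL3:2 and HO2, higher. Against Col-0 in LRFR 1 h, UPM1 was lost without Col-0 replicate 2 or 3 or pif457 replicate 1 or 2. In LRFR 25 h, HO4 was lost without any of the 6 libraries but Col-0 replicate 3, and HEMA2 without any of the 6. The adjusted p values of these lost calls ran up to 0.237, that of UPM1 without pif457 HRFR replicate 2.

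The median log2 fold change at 25 h in Col-0 was −0.21 for the 10 members, −0.32 for the upstream genes, −0.29 for the other magnesium branch genes, −0.04 for the haem, bilin and sirohaem genes and −0.00 for all genes tested. These Col-0 medians moved with the outlying LRFR 25 h replicate 1. Without it they were −0.05 for the members, −0.16 for the upstream genes, −0.11 for the other magnesium branch genes and 0.09 for the haem, bilin and sirohaem genes. In hfr1-101, with all libraries, the medians in the order first given were −0.23, −0.21, −0.25, 0.03 and −0.00. In pif457 they were −0.00, −0.03, −0.01, 0.09 and 0.00. Markers of photosynthetic shoot cells moved in the same comparisons. Of 12 such genes, all detected in every library, 5 light-harvesting genes fell at 25 h in Col-0, against 5.18% of all genes. The list median there was −0.24, and −0.10 without LRFR 25 h replicate 1. In hfr1-101 5 light-harvesting genes fell too, against 8.8% of all genes (list median −0.17). In pif457 0 of 12 passed by edgeR, against 2.37% of all genes, with 2 at an unadjusted p below 0.05 and 1 by DESeq2 (list median −0.15). Their summed level was 66365 to 94859 CPM at 25 h, against 97376 to 113116 CPM in HRFR in Col-0, 83299 to 88973 against 99481 to 111481 CPM in hfr1-101, and 81078 to 82572 against 89867 to 94777 CPM in pif457. The part of this shift in the values of the members was not tested.

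**Figure D4:**
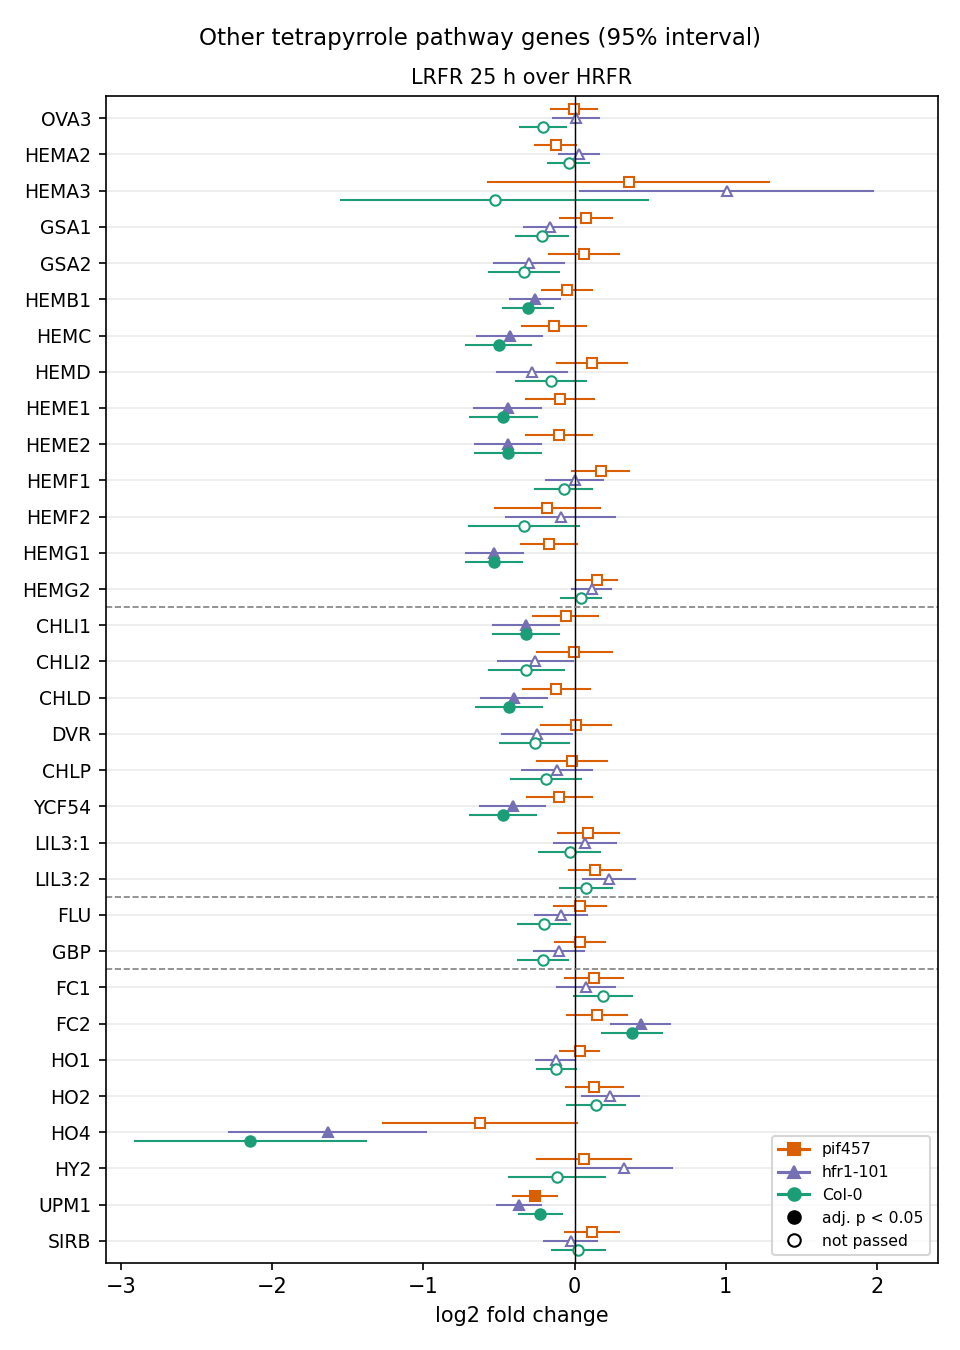
Log2 fold change of LRFR 25 h over HRFR (x axis) with its 95% interval for the other tested genes of the tetrapyrrole pathway, grouped by branch, in pif457, hfr1-101 and Col-0, with filled points at an edgeR adjusted p under 0.05. HEMG1 lies at −0.53 in Col-0 and in hfr1-101, and FC2 at 0.38 and 0.44 on the other side of 0.

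Across the 27 libraries the members followed different genes. Likeness was measured as Pearson's r of log2 CPM among 11545 genes, as a description only, since the libraries share depth and the shift of the outlying libraries. For PORB the nearest genes were VTC4 (r = 0.92), AT2G29670 (0.91) and CYP709B3 (0.91). For CHLM they were CAB2, the light-harvesting gene LHCB1.1 (0.98), AT5G19940 (0.98) and PSAH-1 of photosystem I (0.97). CHLH was nearest to HCEF1 (0.98), ATPC1 (0.97) and HDS (0.97), and CHL27 stood at position 6 in its order (r = 0.96). CHLH in turn stood at position 2 in the order of CHL27. CAO was nearest to APE2 (0.98), PORC to CYP38 (0.96), GUN4 to AT3G23700 (0.96), CHLG to PSB29 (0.95) and HEMA1 to PETC (0.94). PORB was far down the order of CHLH (position 1591, r = 0.46) and of GUN4 (position 2614, r = 0.32), and nearer to CHLM (r = 0.82) and PORC (r = 0.81). PORA had no gene above 0.68.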

How the data were processed

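RNA was sequenced from 27 libraries of whole seedlings. The authors extracted RNA with RNeasy kits, made libraries with Illumina Stranded mRNA Prep, trimmed with Cutadapt, screened out rRNA (fastq_screen) and low-complexity sequence (reaper), mapped to TAIR10 with STAR and counted with htseq-count. The deposited values are raw counts per gene. Tool versions, annotation release and strand setting were not given in the sources used here. Rows that name no gene (6.15% to 7.09% of reads) were left out. Counts were scaled by TMM, filtered with filterByExpr (20887 of 34262 genes kept) and tested in 1 fit of 9 group means over all libraries with edgeR 4.0.16 (quasi-likelihood F-test, R 4.3.3), with Benjamini-Hochberg adjustment over all genes tested. A gene was called changed at an adjusted p below 0.05, without a fold threshold. CPM are TMM-scaled. Intervals are 95% intervals of the fit. Levels between genes used exon lengths of TAIR10.1, which holds 95.0% of the gene identifiers. DESeq2 1.42.0, which the study used, was an alternative, as were other scalings, no filter, fits of fewer libraries, a replicate block and leaving out each library. The fit was tested on simulated data.

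All 10 members were named in every comparison. Of the pathway and marker lists, genes passing the threshold were named. The members and lists were chosen with earlier results of these data known. For likeness, the 3 genes with the highest r were named, or the first of them. The single libraries were of pooled seedlings, so p-values measure the spread between pools.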

Additional observations from a re-analysis of the deposited data

Results flagged for a closer look

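The response of PORB to LRFR differed between pif457 and Col-0 by a test of the difference itself, the interaction term of edgeR's quasi-likelihood fit. The log2 fold change over HRFR in pif457 minus that in Col-0 was 0.71 at 1 h (adjusted p = 0.0499) and 1.46 at 25 h (adjusted p = 0.000435). The 1 h value passed in 6 of 20 alternatives and was lost on leaving out any of 9 libraries, while the 25 h value passed in 20 of 20. At 25 h PORB was lower than the HRFR mean in 3 of 3 Col-0 libraries and in 1 of 3 pif457 libraries.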

How the results depend on the processing

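PORB kept its calls at 25 h in Col-0 and hfr1-101, in HRFR between genotypes and in the 25 h interaction under every alternative run, and no value changed sign where it was called. The counts of members that changed moved as follows. A fit of only the groups compared gave 0 in place of 1 for Col-0 at 1 h, 1 in place of 2 for Col-0 at 25 h, 1 in place of 0 for pif457 at 25 h, 1 in place of 2 for Col-0 25 h against 1 h, and 0 in place of 1 for pif457 against Col-0 at 25 h. Leaving out both outlying Col-0 libraries gave 1 for pif457 at 25 h and 1 for Col-0 25 h against 1 h, the value also given by the 18 libraries of Col-0 and pif457. The interaction of pif457 with 1 h gave 0 in place of 1 with DESeq2 size factors in edgeR, library totals, no filter, 18 libraries or only the groups compared. For hfr1-101 at 25 h the count was 4 in place of 3, with CAO added, under library totals, in a fit of only the groups compared and without both outlying Col-0 libraries. For Col-0 at 25 h library totals gave 3 in place of 2, again with CAO added. Leaving out 1 library at a time gave 0 to 1 for Col-0 at 1 h, 2 to 5 for Col-0 at 25 h, 2 to 3 for hfr1-101 at 25 h, 1 to 2 for Col-0 25 h against 1 h and 0 to 1 for the interaction at 1 h. The cause of these shifts was not tested.

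Over all genes, a fit of only the groups compared called 476 genes in place of 918 (Col-0 at 1 h), 508 in place of 2421 (Col-0 at 25 h), 79 in place of 45 (pif457 at 1 h), 1739 in place of 495 (pif457 at 25 h), 732 in place of 2823 (Col-0 25 h against 1 h), 228 in place of 563 and 325 in place of 1435 (pif457 against Col-0 in HRFR and at 25 h), 20 in place of 37 and 13 in place of 53 (hfr1-101 against Col-0 at 1 h and 25 h) and 35 in place of 96 (pif457 interaction at 25 h). The 18 libraries gave 28, 354 and 48 for pif457 at 1 h, for pif457 against Col-0 in HRFR and for the 25 h interaction. Without both outlying libraries these counts were 891 (pif457 at 25 h), 334 (pif457 against Col-0 in HRFR), 111 (hfr1-101 against Col-0 at 1 h), 154 (pif457 interaction at 25 h) and 1 in place of 0 (hfr1-101 interaction at 1 h). DESeq2 called 943, 57, 80, 186, 4 and 5 genes for pif457 against Col-0 in HRFR, hfr1-101 against Col-0 at 1 h and 25 h, the pif457 interaction at 25 h and the hfr1-101 interactions at 1 h and 25 h. Library totals gave 213 for the pif457 interaction at 25 h and 2 for that of hfr1-101 at 1 h. Leaving out 1 library gave 22 to 33 (pif457 at 1 h), 225 to 327 (pif457 at 25 h), 156 to 782 and 528 to 1773 (pif457 against Col-0 in HRFR and at 25 h), 21 to 55 and 35 to 68 (hfr1-101 against Col-0 at 1 h and 25 h), 45 to 187 (pif457 interaction at 25 h), and 0 to 3 and 0 to 2 (hfr1-101 interactions at 1 h and 25 h).

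The labels do not say whether replicate numbers pair the samples, and the values did not settle it. Of 108 same-numbered pairs of libraries, 26 had deviations correlated over 0.1 (median 0.013, highest 0.62). Of 216 other pairs, 48 did (median −0.00093, highest 0.38). Of 27 libraries, 13 correlated best with their own number. With the replicate block, 3 members fell at 25 h in Col-0 and 4 in hfr1-101, by the addition of CAO (adjusted p = 0.0419 and 0.0405), and 1 gene in place of 0 passed the hfr1-101 interaction at 25 h. The other counts of members were those without the block. Of the listed pathway genes, the block added OVA3, GSA1, GSA2 and CHLI2 as lower in Col-0 at 25 h. In hfr1-101 at 25 h it added GSA2 as lower and LIL3:2 as higher.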
